A study of Mus musculus with 30 samples.

Results

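The 9 genes described here were listed as markers of the CA2 and CA3 fields of the hippocampus. They were taken by symbol from the 24883 rows of the expression table. By this list the CA3 genes are Bok, Iyd, Grik4 and Coch, and the CA2 genes are Rgs14, Amigo2, Pcp4, Map3k15 and Necab2. Not all of them followed their field across the 30 libraries, as given below. Coch and Map3k15 followed choroid plexus genes most closely. Necab2 and Amigo2 had a higher r with other CA3 genes than with other CA2 genes. Iyd and Bok had a higher r with other CA2 genes than with other CA3 genes. Each of the 9 genes had 1 row. In 8 of the 9 genes the mean passed the filter of at least 1 FPKM (mapped fragments scaled to transcript length and to library size) that left 13184 rows for testing. Map3k15 stayed under it, and its differences come from a fit to the 18287 rows above 0 in at least 6 libraries.

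The pyramidal cell layer of the hippocampus is divided into the fields CA1, CA2 and CA3. CA3 neurons receive mossy fibre input from dentate granule cells and project to CA1 through the Schaffer collaterals. CA2 is a small field between them, known for its resistance to long-term potentiation and for its role in social memory. Genes restricted to a field are used to tell how much of it a dissection holds.

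RNA was measured in dorsal hippocampus tissue of 30 adult male wild-type C57BL/6J mice, with 1 library per mouse and 6 mice in each of 5 conditions. CREST is a neuronal coactivator that binds the histone acetyltransferase CBP, and the study asked how a tyrosine of CREST shapes gene expression after object location memory (OLM) training. VEH-HC mice received the vehicle, the transfection reagent in vivo-jetPEI without DNA, and were only handled in the home cage. VEH-T10 mice received the vehicle and the 10 min (threshold) training, and VEH-T3 mice the vehicle and the 3 min (subthreshold) training. Y397F-T10 mice were given a plasmid for the Y397F mutant of CREST, labelled phospho-null, before 10 min of training. Y397D-T3 mice were given one for the Y397D mutant, labelled phospho-mimetic, before 3 min of training. The study could not detect phosphorylation at Y397 and therefore calls both of them point mutants. In both plasmids an HA-tagged mouse CREST was driven by a miniCaMK2 promoter, so that expression is biased to excitatory neurons, and in vivo transfection reaches only some of the cells around the infusion site. Delivery preceded training by 3 days, and the trained mice were sampled 1 h after training. By the labels every mouse received vehicle or plasmid, and no group received a plasmid for unmutated CREST.

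The labels name dissected dorsal hippocampus as the tissue, and the study's text uses both dorsal hippocampus and dorsal CA1 for it. Of the 5 CA1 pyramidal genes checked (Wfs1, Fibcd1, Mpped1, Pou3f1 and Man1a), none was at 0 in any library, and their summed level was between 159.8 and 237.9 FPKM. The 6 dentate granule genes summed to between 52.7 and 164.9 FPKM, so that the tissue held more fields than CA1. Relative depth, read from the steps between low values, ranged from 0.812 to 1.24 across libraries, and between 17037 and 17684 rows were above 0. In 4 libraries the genes of oligodendrocytes and astrocytes were lowest, at a mean log2(FPKM + 1) of 6.31 to 6.61 against 6.86 for the next library. They are VEH-T10 replicate 1, Y397F-T10 replicate 1, VEH-T3 replicate 1 and Y397D-T3 replicate 3, and they hold ranks 1, 2, 3 and 5 of 30 on the first principal component, which carries 31.5% of the variance. No home-cage library is among them.

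Promoter sequence is shown for 3 of the 9 genes, since Iyd and Bok varied together across libraries and Necab2 varied against Iyd. Each window is the 250 bases before the start site in RefSeq (build GRCm38.p6), and windows were at hand for 7 of the 9 genes, all but Rgs14 and Map3k15. The motifs searched on both strands were the cAMP response element TGACGTCA, its shorter core TGACG, the GC box GGGCGG and the TATA box TATAAA. The full element contains the core. Capitals mark the motif matches. The Iyd window is chr10:3540024-3540273 on the plus strand, the Bok window chr1:93685325-93685574 on the plus strand, and the Necab2 window chr8:119446469-119446718 on the plus strand.
Iyd: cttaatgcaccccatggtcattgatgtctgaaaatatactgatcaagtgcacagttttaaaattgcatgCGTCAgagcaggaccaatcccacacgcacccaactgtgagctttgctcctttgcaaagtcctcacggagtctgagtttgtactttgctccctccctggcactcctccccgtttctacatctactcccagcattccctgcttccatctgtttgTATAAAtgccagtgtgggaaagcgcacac
Bok: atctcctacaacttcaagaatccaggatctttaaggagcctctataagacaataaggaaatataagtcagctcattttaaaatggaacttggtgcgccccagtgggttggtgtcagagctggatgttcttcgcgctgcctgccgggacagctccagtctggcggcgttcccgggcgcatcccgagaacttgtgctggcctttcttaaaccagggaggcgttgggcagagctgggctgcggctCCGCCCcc
Necab2: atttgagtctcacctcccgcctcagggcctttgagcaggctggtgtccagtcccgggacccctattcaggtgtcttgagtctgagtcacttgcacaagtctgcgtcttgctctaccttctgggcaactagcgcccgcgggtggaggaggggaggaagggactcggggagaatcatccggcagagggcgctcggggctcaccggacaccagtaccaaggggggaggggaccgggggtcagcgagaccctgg
Iyd was the only one of the 7 genes with a TGACG core, which begins 181 bases before the start on the minus strand, and the only one with a TATA box, 29 bases before the start. Over all 32851 windows of this length, 17.77% hold the core and 12.37% the TATA box. Bok has 1 GC box, 8 bases before the start, and Necab2 has none of the motifs. Grik4 has 1 GC box, Coch 3 and Amigo2 4, against 32.74% of all windows with at least 1, and Pcp4 has no match. The full cAMP response element, which 1.546% of windows hold, is in none of the 7 windows. The start sites here are those of RefSeq. In the GENCODE coordinates given below Iyd starts at 3540240, so that its TATA box and the end of its window lie within the gene. The Grik4 window also reaches into its GENCODE gene.

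By mean level over the 30 libraries the order was Pcp4 (232.5 FPKM), Bok (83.6), Rgs14 (61.8), Necab2 (37.7), Grik4 (15.4), Amigo2 (9.33), Iyd (3.99), Coch (2.81) and Map3k15 (0.679 FPKM). FPKM is scaled to transcript length, so these levels can be set beside each other. The ranges of Bok (52.7 to 122.0 FPKM), Rgs14 (44.0 to 85.5) and Necab2 (24.4 to 58.4) overlap, and so do those of Iyd (1.45 to 6.50) and Coch (0.635 to 8.92). The spread differed between genes: the highest library exceeded the lowest by 1.82-fold for Grik4, 1.88-fold for Amigo2 and 1.94-fold for Rgs14, but by 4.47-fold for Iyd, 8.40-fold for Map3k15 and 14.1-fold for Coch. In 8 of the 9 genes, all but Amigo2, the home-cage mice had the lowest coefficient of variation of the 5 conditions. The same was true of 38.04% of the 13184 tested rows.

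**Figure D1:**
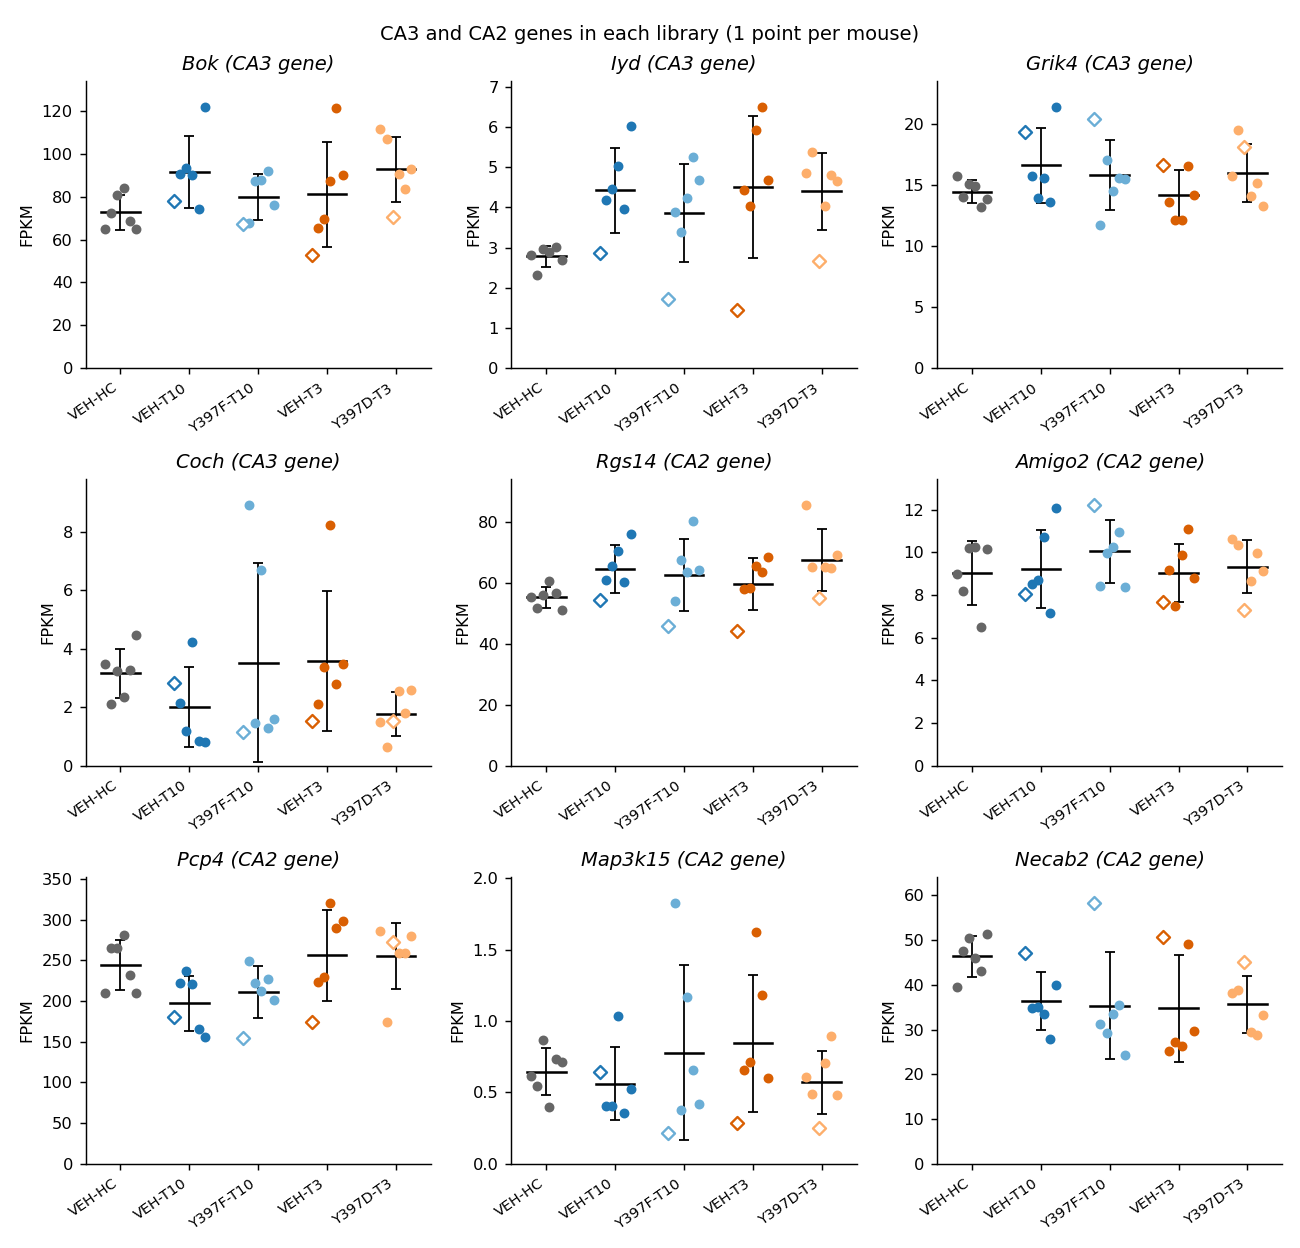
Level of each gene in FPKM (y axis, from 0) in the 5 conditions (x axis), 1 point per mouse, with the mean (line) and SD (bar) of 6 mice. Open diamonds are the 4 libraries lowest in oligodendrocyte and astrocyte genes: for Iyd they lie at 1.45 to 2.87 FPKM, below every other library of the trained conditions, and for Necab2 at 45.2 to 58.4 FPKM.

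None of the 9 genes passed the test in any of the 7 comparisons between conditions. The test was limma on log2(FPKM + 1) with Benjamini-Hochberg adjustment over all tested rows and a threshold of 0.05. Against VEH-HC it called 0.819% of all rows in VEH-T10 and 1.13% of them in Y397F-T10, but 5.17% in VEH-T3 and 7.07% in Y397D-T3. Between the trained groups, Y397F-T10 against VEH-T10 called 0% of rows, VEH-T10 against VEH-T3 called 0.0455%, and Y397D-T3 against VEH-T3 called 0.00758%. The moderated F test over the 5 conditions called 2.64% of rows and again none of the 9. In bulk tissue, fewer cells of a type and less RNA per cell cannot be told apart.

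At an unadjusted p under 0.05, 3 genes passed in VEH-T10 against VEH-HC (Bok, Iyd and Pcp4), beside 14.9% of all rows. Necab2 alone passed in Y397F-T10, beside 16.9% of rows, Iyd and Necab2 in VEH-T3, beside 21.6%, and Bok, Iyd, Rgs14 and Necab2 in Y397D-T3, beside 24.9%. Pcp4 was the only one in VEH-T10 against VEH-T3, where 8.15% of rows passed. None passed in Y397F-T10 against VEH-T10 or in Y397D-T3 against VEH-T3, where 3.78% and 7.87% of rows did. In fits to only the 12 libraries compared, Iyd passed at an adjusted p under 0.05 in VEH-T10, beside 2.43% of rows, and Bok, Iyd, Coch, Rgs14 and Necab2 in Y397D-T3, beside 14% of rows. None of the 9 passed in the other 5 comparisons so fitted, where 0.326% of rows passed in Y397F-T10 against VEH-HC and 0% in the others. The F test without the 4 libraries called Iyd and Necab2, beside 9.98% of rows. The 4 comparisons with VEH-HC share its 6 mice.

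Of the CA3 genes, Iyd had the lowest p against the home cage in all 4 trained conditions, while Coch had the larger log2 difference in VEH-T10 and Y397D-T3. Iyd encodes iodotyrosine deiodinase, the enzyme that recovers iodide in the thyroid, and is used here as a CA3 marker. In VEH-HC its level was 2.31 FPKM in the lowest mouse, 2.85 at the median and 3.02 in the highest. In VEH-T10 the same values were 2.87, 4.32 and 6.02 FPKM, in Y397F-T10 1.71, 4.06 and 5.25 FPKM, in VEH-T3 1.45, 4.55 and 6.50 FPKM, and in Y397D-T3 2.66, 4.73 and 5.39 FPKM. All 4 trained medians lie above the highest home-cage mouse, and the ranges overlap because of 1 low mouse in each trained condition. The mean was 4.42 ± 1.06 FPKM in VEH-T10 against 2.78 ± 0.255 in VEH-HC (SD, n = 6 each), a ratio of 1.59 with an adjusted p of 0.239. The difference in log2(FPKM + 1) from VEH-HC was 0.50 ± 0.21 (SE) in VEH-T10 and 0.32 ± 0.21 in Y397F-T10, with 0.46 ± 0.21 in VEH-T3 and 0.50 ± 0.21 in Y397D-T3. The adjusted p was 0.129 in Y397D-T3, 0.179 in VEH-T3 and 0.443 in Y397F-T10.

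The 1 low mouse of each trained condition was, in all 4, the library low in oligodendrocyte and astrocyte genes. For Iyd these libraries hold ranks 1, 2, 4 and 7 from the lowest of 30, so that leaving them out removes low Iyd values from the trained conditions and none from the home cage. Without them, 5 trained mice per condition stood against 6 home-cage mice and Iyd did not overlap in any of the 4 comparisons. The ratio of means was 1.70 in VEH-T10 (adjusted p = 0.00125), 1.55 in Y397F-T10 (adjusted p = 0.00662), 1.84 in VEH-T3 (adjusted p = 0.000156) and 1.71 in Y397D-T3 (adjusted p = 0.000718). The same fits called 5.98%, 6.77%, 12.7% and 10.7% of all rows, and 1.46%, 1.59%, 2.09% and 3.47% of rows were higher than in VEH-HC with no overlap. This setting was chosen after seeing the data, with the values of Iyd known.

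Bok, a Bcl-2 family protein related to Bax and Bak, had a home-cage level of 65.0 FPKM in the lowest mouse, 70.8 at the median and 84.4 in the highest. In Y397D-T3 these values were 70.6, 91.9 and 111.8 FPKM, and in VEH-T10 74.4, 90.6 and 122.0 FPKM. Every VEH-T10 mouse and 5 of the 6 Y397D-T3 mice were above the home-cage median, but the ranges overlap. The log2 difference was 0.31 ± 0.15 in VEH-T10 (adjusted p = 0.317) and 0.34 ± 0.15 in Y397D-T3 (adjusted p = 0.154). VEH-T3 was the most spread condition for Bok, from 52.7 to 121.7 FPKM. For Bok the 4 libraries low in oligodendrocyte and astrocyte genes hold ranks 1, 5, 9 and 13 from the lowest of 30. The one in Y397D-T3 is the lowest mouse of that condition (70.6 FPKM), and no home-cage library is left out. Without them Bok passed in Y397D-T3 (ratio 1.34, adjusted p = 0.0468), beside 10.7% of all rows.

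Grik4 encodes the kainate receptor subunit GluK4, which is enriched in CA3 neurons. Its condition means lay between 14.2 ± 2.01 FPKM in VEH-T3 and 16.6 ± 3.11 FPKM in VEH-T10 (SD, n = 6). The difference from VEH-HC ranged from -0.03 in VEH-T3 to 0.17 in VEH-T10 on the log2 scale. The 95% interval in VEH-T10 ran from -0.06 to 0.40. The 4 libraries low in oligodendrocyte and astrocyte genes hold ranks 24, 26, 27 and 29 of 30 for Grik4, the opposite end from their ranks for Iyd. Its difference from VEH-HC without them ranged from -0.08 in VEH-T3 to 0.13 in VEH-T10.

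Coch encodes cochlin, a secreted matrix protein best known from the inner ear, and was the most variable of the 9 genes. In Y397F-T10 the lowest mouse had 1.15 FPKM, the median was 1.54 and the highest mouse had 8.92 FPKM. In VEH-T3 these values were 1.53, 3.09 and 8.23 FPKM, in VEH-HC 2.12, 3.26 and 4.46 FPKM, in VEH-T10 0.794, 1.66 and 4.24 FPKM, and in Y397D-T3 0.635, 1.66 and 2.60 FPKM. Only 3 libraries exceeded 5 FPKM: Y397F-T10 replicates 2 and 4 and VEH-T3 replicate 4. All 6 Y397D-T3 mice were below the home-cage median, with a log2 difference of -0.61 ± 0.35 (95% interval -1.33 to 0.11, adjusted p = 0.282), and -0.59 without the 4 libraries (adjusted p = 0.304).

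Of the CA2 genes, Necab2 had the log2 difference of largest size from the home cage in all 4 trained conditions, although the p of Pcp4 was lower in VEH-T10 and that of Rgs14 in Y397D-T3. Necab2 encodes a neuronal calcium-binding protein with EF hands. In VEH-HC its level was 39.4 FPKM in the lowest mouse, 46.9 at the median and 51.3 in the highest. In VEH-T10 the values were 27.8, 34.9 and 47.1 FPKM, in Y397F-T10 24.4, 32.4 and 58.4 FPKM, in VEH-T3 25.1, 28.4 and 50.8 FPKM, and in Y397D-T3 28.8, 35.8 and 45.2 FPKM. The trained medians all lie below the lowest home-cage mouse, while at least 1 mouse of each trained condition lies within the home-cage range or above it. The log2 difference was -0.36 ± 0.18 in VEH-T10 (adjusted p = 0.349), -0.43 ± 0.18 in Y397F-T10 (adjusted p = 0.213), -0.46 ± 0.18 in VEH-T3 (adjusted p = 0.119) and -0.38 ± 0.18 in Y397D-T3 (adjusted p = 0.177).

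For Necab2 the same 4 libraries hold ranks 22, 24, 28 and 30 of 30. Without them Necab2 fell in 3 of the 4 comparisons with VEH-HC. The ratio of means was 0.664 in Y397F-T10 (adjusted p = 0.00937), 0.680 in VEH-T3 (adjusted p = 0.0052) and 0.727 in Y397D-T3 (adjusted p = 0.0303), and in VEH-T10 it was 0.737 (adjusted p = 0.0563). VEH-T3 still overlapped with VEH-HC, since VEH-T3 replicate 5 had 49.1 FPKM. Leaving out a single library also changed the call, but the share of all rows called in those fits was not computed. Necab2 passed in Y397F-T10 without replicate 1 (log2 difference -0.58, adjusted p = 0.0461), and in VEH-T3 without replicate 1 (-0.58, adjusted p = 0.0321) or without replicate 5 (-0.57, adjusted p = 0.0435). Iyd passed in VEH-T3 without replicate 1 (0.68, adjusted p = 0.0128).

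**Figure D2:**
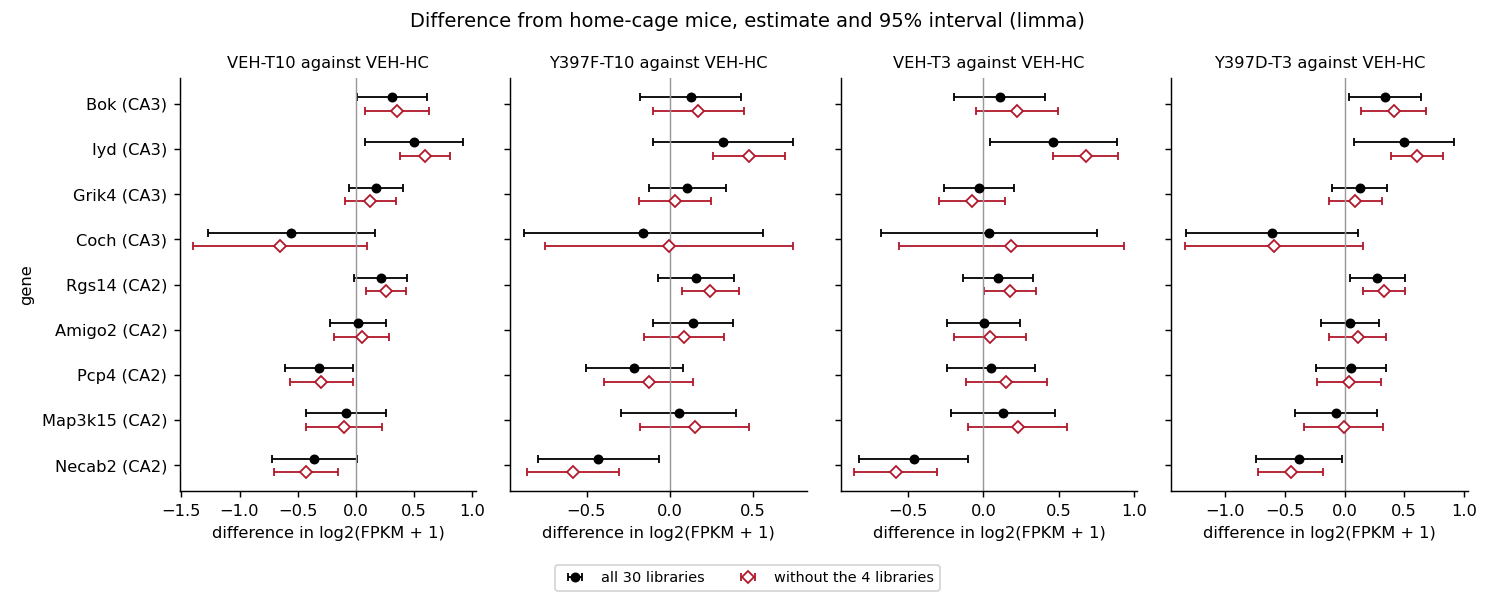
Difference from VEH-HC in log2(FPKM + 1) (x axis) for the 9 genes (y axis) in each trained condition, as the limma estimate with its 95% interval, from all 30 libraries (filled) and without the 4 libraries (open diamonds). Iyd moves from 0.50 to 0.59 in VEH-T10 and from 0.46 to 0.68 in VEH-T3, and its interval narrows, while the intervals of Grik4, Coch, Amigo2 and Map3k15 include 0 in all panels.

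Rgs14, a regulator of G protein signalling that restrains synaptic plasticity in CA2 neurons, had 50.9 FPKM in the lowest home-cage mouse, 55.6 at the median and 60.5 in the highest. In Y397D-T3 the values were 54.8, 65.2 and 85.5 FPKM. In that condition 5 of 6 mice were above the home-cage median, and the mean was 67.4 ± 10.0 FPKM against 55.2 ± 3.54 FPKM (SD, n = 6 each; adjusted p = 0.125). The log2 difference from VEH-HC was 0.27 ± 0.11 in Y397D-T3, 0.22 ± 0.11 in VEH-T10, 0.16 ± 0.11 in Y397F-T10 and 0.10 ± 0.11 in VEH-T3. The 4 libraries hold ranks 1, 2, 6 and 7 from the lowest of 30 for Rgs14, and the one in Y397D-T3 is its lowest mouse. Leaving them out therefore removes low Rgs14 values from the trained conditions and none from the home cage. Without them Rgs14 passed in Y397D-T3 (ratio 1.27, adjusted p = 0.0124), beside 10.7% of all rows.

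Pcp4 encodes a small calmodulin-binding peptide and was the most abundant of the 9. Its condition means were lowest after 10 min of training, at 196.9 FPKM in VEH-T10 and 211.0 FPKM in Y397F-T10, and lay between 243.8 and 256.0 FPKM in the other conditions. In VEH-T10 the lowest mouse had 155.4 FPKM, the median was 200.7 and the highest had 236.6 FPKM. In VEH-T3 the values were 174.5, 259.6 and 320.8 FPKM, and in VEH-HC 209.5, 248.4 and 280.6 FPKM. All 6 VEH-T10 mice were below the median of VEH-T3 and below that of VEH-HC. The mean was 196.9 ± 34.0 FPKM in VEH-T10 and 256.0 ± 55.9 FPKM in VEH-T3 (SD, n = 6 each), a log2 difference of -0.36 ± 0.14 with an adjusted p of 0.538, and of -0.45 ± 0.14 without the 4 libraries (adjusted p = 0.264). Pcp4 had the lowest F test p of the 9 (adjusted p = 0.248), with 29.3% of its spread lying between conditions against a median of 17.6% over all tested rows.

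Amigo2, a leucine-rich repeat adhesion protein, varied least between conditions. Its means were between 9.02 ± 1.36 FPKM in VEH-T3 and 10.0 ± 1.48 FPKM in Y397F-T10 (SD, n = 6), and 6.87% of its spread lay between conditions. The 95% interval of its log2 difference from VEH-HC reached from -0.22 to 0.26 in VEH-T10 and from -0.24 to 0.24 in VEH-T3. Map3k15, a kinase at the head of mitogen-activated protein kinase cascades, was close to the floor of the table, with condition means from 0.561 to 0.842 FPKM. Its highest libraries were Y397F-T10 replicate 2 (1.83 FPKM) and VEH-T3 replicate 4 (1.62 FPKM), both also among the 3 highest for Coch. Exons of Map3k15 overlap those of Pdha1 on the opposite strand, a gene at a mean of 78.9 FPKM, and whether the counting used strand is not given in the sources used here, so reads of the pair may not be told apart.

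The plasmids were compared with the vehicle at the same training length. For Y397F-T10 against VEH-T10 the log2 differences of the 8 tested genes lay between -0.19 (Bok) and 0.40 (Coch, SE 0.35). For Y397D-T3 against VEH-T3 they lay between -0.65 (Coch, SE 0.35) and 0.23 (Bok, SE 0.15). For Iyd the 95% interval was -0.60 to 0.24 in the first comparison and -0.39 to 0.45 in the second, and for Necab2 it was -0.44 to 0.29 and -0.28 to 0.44. Differences of this size between plasmid and vehicle were therefore not detectable, nor were they shown to be absent. None of the 9 genes passed in these comparisons without the 4 libraries either.

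Other genes of both fields were not called with all 30 libraries. Of 7 other CA2 genes (Avpr1b, Cacng5, Ntf3, Stard5, Ccdc3, Fgf2 and Gsto1) and 7 other CA3 genes (Pvrl3, Npy2r, Elavl2, Cpne4, Socs2, Nnat and Dkk3), none of the 6 and 7 that were tested passed in any of the 4 comparisons with VEH-HC. The median log2 difference of the other CA3 genes was 0.12 in VEH-T10 and 0.06 in Y397F-T10, with -0.02 in VEH-T3 and 0.06 in Y397D-T3. For the 4 CA3 genes described above it was 0.24, 0.12, 0.07 and 0.23, and over all tested rows -0.03, -0.04, -0.04 and -0.03. The other CA2 genes had medians of -0.0026, -0.10, -0.14 and -0.03 in the same order. When the 4 libraries were left out, Ccdc3 of the CA2 list rose by 0.56 in VEH-T3, 0.55 in VEH-T10 and 0.53 in Y397D-T3 (limma adjusted p = 0.00396, 0.00754 and 0.00705). Of the CA3 list, Nnat fell by 0.89 in VEH-T3, 0.50 in Y397D-T3 and 0.45 in Y397F-T10 (adjusted p = 0.000141, 0.0186 and 0.0426), Socs2 fell by 0.35 in VEH-T3 (adjusted p = 0.0181) and Cpne4 rose by 0.31 in Y397D-T3 (adjusted p = 0.0219). Avpr1b, the vasopressin receptor of CA2 neurons, was under the filter, at 0.0199 to 0.433 FPKM.

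Genes of tissue next to the hippocampus were read in the same fits, and few of them passed. Of the 4 tested of 6 deep cortex genes, 1 fell in VEH-T10 and in Y397D-T3 and 0 passed in Y397F-T10 and VEH-T3. That gene was Ctgf, with log2 differences of -0.92 (limma adjusted p = 0.0479) and -0.74 (adjusted p = 0.0443). The median of the 4 was -0.63 in VEH-T10 and -0.51 in Y397F-T10, with -0.52 in VEH-T3 and -0.48 in Y397D-T3, and their members were not alike, since Tle4 lay between -0.02 and 0.01. Of the 3 subiculum genes (Fn1, Nts and Dlk1) only Dlk1 passed, with a fall of 1.05 in Y397D-T3 (adjusted p = 0.0325). Their median was -0.80, -0.73, -0.79 and -0.73 in the same order, while Fn1 lay between -0.29 and 0.0023. Deep cortex genes summed to between 36.4 and 46.8 FPKM in the home-cage mice and to between 24.3 and 51.3 FPKM in the trained mice, and subiculum genes to between 15.2 and 19.9 FPKM and between 6.13 and 20.8 FPKM. With the 4 libraries left out, 3, 2, 3 and 2 of the 4 deep cortex genes fell in the same order of conditions. Of the 3 subiculum genes 2, 2, 2 and 1 fell, and Tle4 and Fn1 again did not pass. Those fits called 5.98%, 6.77%, 12.7% and 10.7% of all rows. Each library left out was the highest of its trained condition on both lists, so that leaving it out removes high values from the trained conditions and none from the home cage.

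Of the 6 tested of 7 thalamus genes, 2 passed in Y397D-T3 and 1 in each condition trained for 10 min, but 0 in VEH-T3. The glutamate transporter gene Slc17a6 fell by 1.08, 1.12 and 0.95 on the log2 scale in VEH-T10, Y397F-T10 and Y397D-T3 (adjusted p = 0.031, 0.0313 and 0.0199), and Tcf7l2 fell by 0.37 in Y397D-T3 (adjusted p = 0.0211). The other 4 in Y397D-T3 lay between -0.32 (Lef1) and 0.15 (Plekhg1). Slc17a6 fell in all 4 conditions without the 4 libraries, Tcf7l2 fell in Y397D-T3, and Plekhg1 rose in VEH-T3 and Y397D-T3. Of the 5 CA1 genes 1 passed, Pou3f1, which rose by 0.33 in Y397D-T3 (adjusted p = 0.0198), with the other 4 between -0.09 and 0.06 there. Pou3f1 also rose in Y397D-T3 without the 4 libraries (adjusted p = 0.0056) and Mpped1 fell in VEH-T3 (adjusted p = 0.00774). Without the 4 libraries 12.7% of all rows passed in VEH-T3 and 10.7% in Y397D-T3. All 6 choroid plexus genes had a lower mean log2(FPKM + 1) than VEH-HC in each trained condition, and none passed, with or without the 4 libraries. In VEH-T3 the mean FPKM of Ttr and Kcne2 was higher than in VEH-HC, as was that of Otx2 in Y397F-T10. They summed to between 917.6 and 5590 FPKM in VEH-HC, and the lowest library was at 10.3 FPKM in VEH-T10, 13.5 FPKM in Y397D-T3, 28.9 FPKM in Y397F-T10 and 29.6 FPKM in VEH-T3. Kcne2 was listed at 0 in 1 library. In the trained conditions 10 of the 24 libraries reached a mean log2(FPKM + 1) of 3 on this list and the other 14 lay at 2.59 or less, while all 6 home-cage libraries were at 3.72 or above. The part of these tissues in the results above was not tested.

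Across the 30 libraries the 9 genes did not vary as 2 sets. Of the 36 pairs, 13 had a Benjamini-Hochberg adjusted p under 0.05 for Pearson's r, 8 of them positive and 5 negative (permutation test, 2-sided, 100000 permutations). The share among pairs of all tested rows was not computed, so this count is not particular to the 9 genes. Among the pairs within CA3, 3 of 6 had an r above 0, within CA2 6 of 10, and between the fields 13 of 20. The highest positive relations joined CA3 and CA2 genes: Iyd with Rgs14 (r = 0.83, rho = 0.82), Bok with Rgs14 (r = 0.81, rho = 0.84) and Coch with Map3k15 (r = 0.81, rho = 0.72). Bok with Iyd, both CA3 genes, had r = 0.77 and rho = 0.77. For these 4 pairs the permutation p of r and of rho was 1e-05, the smallest that 100000 permutations can give, and the adjusted p was 9e-05.

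Of the 5 negative relations, 3 joined a CA3 and a CA2 gene and 2 lay within a field. Grik4 with Coch, both CA3 genes, had r = -0.61 and rho = -0.54 (adjusted permutation p = 0.00324 and 0.0192), Iyd with Necab2, a CA3 and a CA2 gene, r = -0.59 and rho = -0.48 (adjusted p = 0.00354 and 0.0383), and Grik4 with Pcp4 r = -0.55 and rho = -0.41 (adjusted p = 0.00914 and 0.0759). Grik4 with Map3k15 (r = -0.49, rho = -0.45, adjusted p = 0.0225 and 0.0416) and, within CA2, Rgs14 with Necab2 (r = -0.48, rho = -0.47, adjusted p = 0.0253 and 0.0383) were weaker, at -0.39 and -0.23 without the 4 libraries. For the 7 other pairs given, with the 2 libraries farthest from the median of the first gene left out, r was 0.73 for Iyd with Rgs14, 0.75 for Bok with Rgs14, 0.67 for Coch with Map3k15, 0.69 for Bok with Iyd, -0.54 for Grik4 with Coch, -0.46 for Iyd with Necab2 and -0.35 for Grik4 with Pcp4. As deviations from the condition means these values were 0.83, 0.77, 0.81, 0.76, -0.55, -0.50 and -0.53, so that the relations were also present between mice of the same condition. Without the 4 libraries they were 0.70, 0.76, 0.80, 0.70, -0.63, -0.39 and -0.48.

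**Figure D3:**
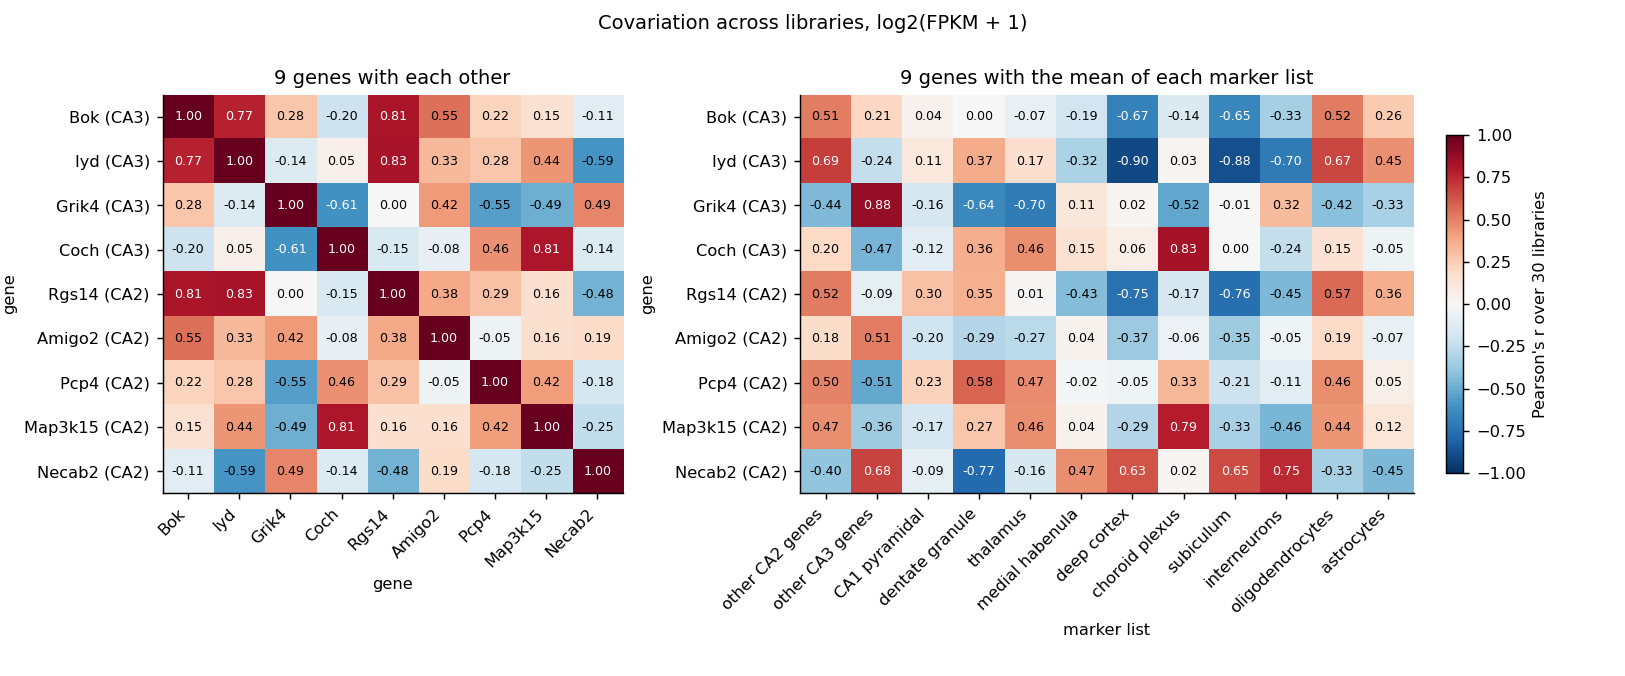
Pearson's r over 30 libraries (colour and number) between the 9 genes (left) and between each gene and the mean log2(FPKM + 1) of 12 marker lists (right). Bok, Iyd and Rgs14 form a block at 0.77 to 0.83, Coch and Map3k15 pair at 0.81, and Iyd reaches -0.90 with the deep cortex list.

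The lists of other cell types and regions separated the 9 genes further. Of 108 relations of a gene with a list, 42 had an adjusted permutation p under 0.05 for r. How many relations of other tested rows with these lists would pass was not computed. Iyd was lower where the deep cortex list (r = -0.90, rho = -0.88) and the subiculum list (r = -0.88, rho = -0.90) were higher. As deviations from the condition means r was -0.90 and -0.87, without the 4 libraries -0.90 and -0.89, and without the 2 libraries farthest from the median of the list -0.86 and -0.85. Rgs14 (r = -0.75 and -0.76) and Bok (r = -0.67 and -0.65) had the same sign with these lists. Necab2 had the opposite sign (r = 0.63 and 0.65), and its highest relations were with dentate granule genes (r = -0.77, rho = -0.82) and interneuron genes (r = 0.75, rho = 0.71), at -0.79 and 0.69 without the 2 farthest libraries. These values without the 4 libraries were -0.65 and -0.68 for Rgs14, -0.54 and -0.56 for Bok, and 0.55, 0.57, -0.72 and 0.65 for Necab2. For Iyd, Rgs14 and Necab2 with these lists the adjusted permutation p of r was between 0.00012 and 0.000853. Iyd also had r = -0.70 with interneuron genes and r = 0.67 with oligodendrocyte genes, at -0.55 and 0.37 without the 4 libraries.

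Grik4 was the gene that followed the other CA3 genes most closely, at r = 0.88 and rho = 0.80 (adjusted permutation p = 0.00012 and 0.000154), at r = 0.84 without the 4 libraries and at r = 0.85 without the 2 farthest. Its relations with thalamus genes (r = -0.70) and dentate granule genes (r = -0.64) were negative, at -0.52 and -0.59 without the 4 libraries. Necab2, a CA2 gene by list, also followed the other CA3 genes (r = 0.68, rho = 0.70), while its r with the other CA2 genes was -0.40. Iyd, a CA3 gene by list, followed the mean of the other CA2 genes (r = 0.69, rho = 0.50) and had r = -0.24 with the other CA3 genes. That CA2 list holds Ccdc3, which has r = 0.88 with Iyd. Its genes did not move as a set, with log2 differences from -0.46 (Cacng5) to 0.43 (Ccdc3) in VEH-T10 against VEH-HC. Without the 4 libraries Iyd with the other CA2 genes was at r = 0.39, and Necab2 with the other CA3 genes at r = 0.54. The negative values did not keep their sign there, with r = 0.055 for Necab2 with the other CA2 genes and r = 0.19 for Iyd with the other CA3 genes, so that a contrast of each gene with its own field rests on the 4 libraries. Amigo2, a CA2 gene by list, had r = 0.51 with the other CA3 genes and 0.18 with the other CA2 genes. Its values without the 4 libraries were 0.72 and 0.13. Bok, a CA3 gene by list, had r = 0.21 with the other CA3 genes and 0.51 with the other CA2 genes. For Bok the order turned around without the 4 libraries, at 0.59 and 0.31.

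Coch and Map3k15 followed the choroid plexus genes, the epithelium that secretes cerebrospinal fluid. The libraries fall into 2 ranges for that list, so r is given within each. In the 16 libraries at 3 or above, r was 0.86 for Coch (rho = 0.77) and 0.79 for Map3k15 (rho = 0.84). In the 14 libraries under 3, r was 0.26 for Coch (rho = 0.22) and 0.35 for Map3k15 (rho = 0.46). In the 26 libraries without the 4, r was 0.88 and 0.82 in the first range (15 libraries) and 0.27 and 0.07 in the second (11 libraries). Coch ranged from 1.49 to 8.92 FPKM in the first range and from 0.635 to 3.48 FPKM in the second, and Map3k15 from 0.393 to 1.83 FPKM and from 0.217 to 0.893 FPKM. The 3 libraries highest in Coch were also the 3 highest in choroid plexus genes, with summed levels of 6326, 10400 and 12790 FPKM. Coch had r = -0.47 with the other CA3 genes and Map3k15 had r = 0.47 with the other CA2 genes, at -0.44 and 0.33 without the 4 libraries.

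**Figure D4:**
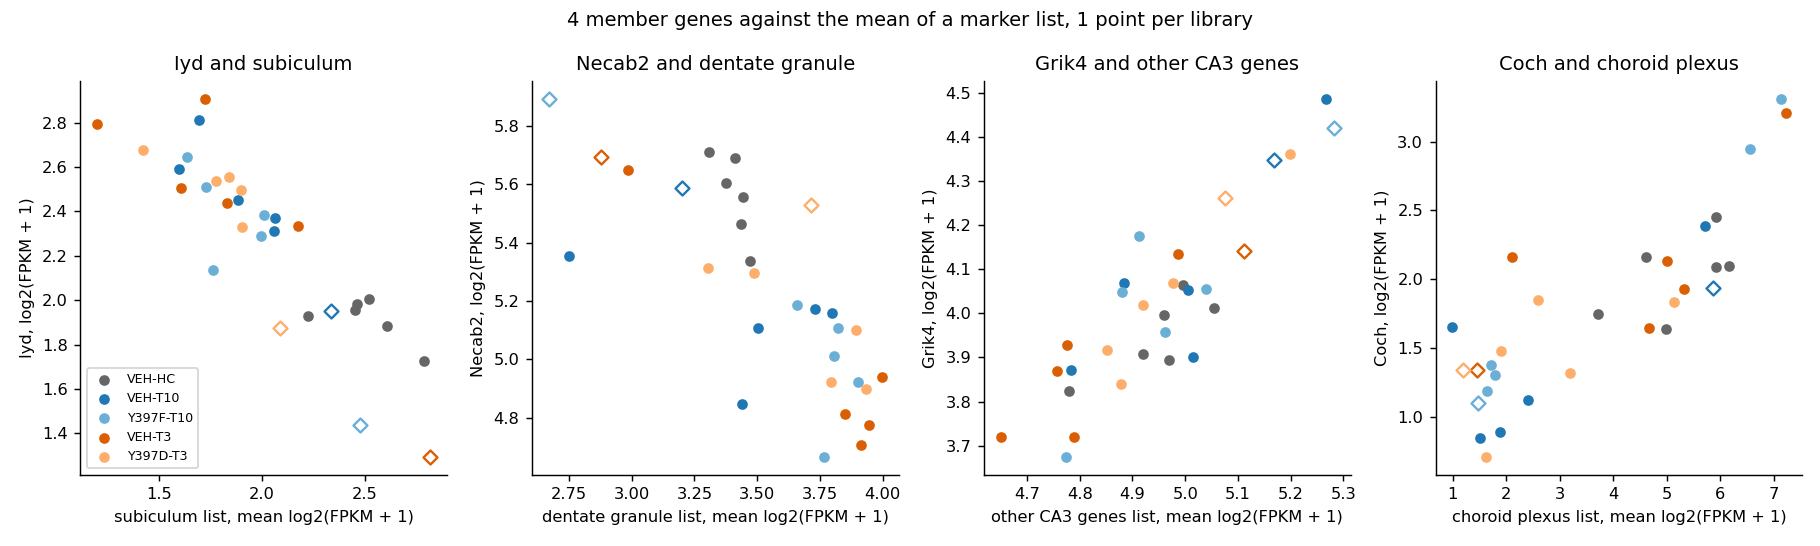
Log2(FPKM + 1) of Iyd, Necab2, Grik4 and Coch (y axes) against the mean log2(FPKM + 1) of a marker list (x axes), 1 point per library coloured by condition, with open diamonds for the 4 libraries lowest in oligodendrocyte and astrocyte genes. Iyd goes down as subiculum genes go up (r = -0.88), with home-cage libraries at 2.23 to 2.79 on that list, and the 3 libraries highest in Coch are the 3 highest in choroid plexus genes.

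The 3 tested rows with the highest r to each gene over the 30 libraries follow. Bok was closest to Rem2, an RGK family GTPase (r = 0.91), to Gpc1 (0.87) and to Homer3, a postsynaptic scaffold (0.87). Iyd was closest to Cpne9 (r = 0.93), E030003E18Rik (0.90) and Ccdc3 (0.88), the last of which is among the other CA2 genes. Grik4 was closest to Ywhag (0.90), Cadm3 (0.89) and Tnfrsf21 (0.89). Coch was closest to Slc13a4, a sulfate transporter (0.93), Ahcyl2 (0.93) and Ogn, a matrix proteoglycan (0.93).

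Among the CA2 genes, Rgs14 was closest to Lefty1 (r = 0.93), to Hpca, the calcium sensor hippocalcin (0.90), and to Arpc5 (0.89). Necab2 was closest to Nrsn2 (0.93), to Camk2n2, an inhibitor of CaMKII (0.92), and to Resp18 (0.91). Map3k15 was closest to Strip2 (0.93), Chdh (0.89) and Trp73 (0.89), and Pcp4 to Dgat2 (0.87), Hnrnpl (0.81) and Pkig (0.79). Amigo2 had the weakest match, with Rerg at 0.73, Cpne4 at 0.68 and Rasl11a at 0.66. As deviations from the condition means all 27 values stayed between 0.76 and 0.94, so these likenesses were also present within conditions. They stayed between 0.71 and 0.94 without the 4 libraries.

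In the annotation of GRCm38 the 9 genes lie on 9 chromosomes and all are protein coding. Exons of Amigo2 overlap Pced1b on the opposite strand and those of Pcp4 overlap Igsf5 on the same strand, genes at 2.29 and 0.35 FPKM. Grik4 is the longest, with 426.4 kb on chromosome 9 (42518135 to 42944493, minus strand), and Amigo2 the shortest, with 3.2 kb on chromosome 15 (97244125 to 97247287, minus strand). Iyd lies on chromosome 10 (3540240 to 3554877), Necab2 on chromosome 8 (119446719 to 119472640), Bok on chromosome 1 (93685660 to 93695764), Rgs14 on chromosome 13 (55369732 to 55384687), Coch on chromosome 12 (51593341 to 51605771), Pcp4 on chromosome 16 (96467606 to 96525793) and Map3k15 on chromosome X (159988433 to 160123351), all on the plus strand.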

How the data were processed

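RNA-seq of dorsal hippocampus from 30 male mice, 1 library per mouse, was sequenced on NovaSeq and HiSeq instruments; which library ran on which is not given in the sources used here. The authors deposited 1 table of FPKM values per gene, made with TopHat2 2.1.1, Cufflinks 2.2.1 and mm10 per the labels. FPKM keeps no counts, so no count model, counting interval or detection floor was used.

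Groups followed the labels. Values were tested as log2(FPKM + 1), on rows with a mean of at least 1 FPKM, with limma 3.58.1 (R 4.3.3; 1 coefficient per condition, trended empirical Bayes, all 30 libraries, Benjamini-Hochberg, threshold 0.05). A difference on this scale understates the change of low genes. Without the filter, rows above 0 in at least 6 libraries were kept. The fit was tested on simulated data. Relations used 100000 permutations (numpy 2.4.6), adjusted over 36 pairs and over 108 gene and list relations. Alternatives were a pseudocount of 0.1, no filter, median-centred libraries, a replicate block, only the 12 libraries compared, unadjusted p, and each library left out.

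Named genes were the 9 members, the 3 tested rows with the highest r to each, and list genes past the test or at the end of their list. Another gene of the CA1 list is not reported here. The members and lists were chosen with earlier results of these data known. Coordinates come from GENCODE on GRCm38, promoter windows from RefSeq. Libraries correlated at 0.938 to 0.991, and none was a duplicate.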

Additional observations from a re-analysis of the deposited data

Results flagged for a closer look

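Of the 45 groups formed by 9 genes and 5 conditions, 2 held a library far from the other 5, by Dixon's 95% limit on the gap to the nearest of them over the whole range on the log2 scale. Chance alone marks about 1 in 20 groups. Iyd in VEH-T3 replicate 1 was at 1.453 FPKM, with the other 5 mice at 4.04 to 6.50 FPKM, a gap of 0.645 of the range. This library is one of the 4 lowest in oligodendrocyte and astrocyte genes and has the highest deep cortex list of all 30 (2.68). Pcp4 in Y397D-T3 replicate 2 was at 174.7 FPKM, with the others at 258.7 to 285.5 FPKM, a gap of 0.799 of the range. That library holds rank 4 of 30 on the first principal component and is not among the 4.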

How the results depend on the processing

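With all 30 libraries, 0 of the 9 genes passed in each of the 7 comparisons and in the F test. A pseudocount of 0.1, no filter, median-centred libraries and the replicate block each left these counts at 0. Equal numbers belong to different mice, and a batch shared by number was not tested. Same-numbered libraries had a correlation of deviations from -0.50 to 0.84 (median 0.04), against a median of 0.01 for other numbers. By comparison the median ran from -0.19 (Y397F-T10 with VEH-HC) to 0.24 (VEH-T10 with VEH-T3). Replicate 1 of VEH-T10, Y397F-T10 and VEH-T3 is among the 4 libraries low in oligodendrocyte and astrocyte genes. Under the replicate block 0 genes passed in every comparison. At unadjusted p under 0.05 the counts against VEH-HC were 3 in VEH-T10 and 1 in Y397F-T10, with 2 in VEH-T3 and 4 in Y397D-T3, and they were 1 in VEH-T10 against VEH-T3 (Pcp4) and 1 in the F test (Pcp4). With only the 12 libraries compared, 1 passed in VEH-T10 (Iyd), beside 2.43% of all rows, and 5 in Y397D-T3 (Bok, Iyd, Coch, Rgs14 and Necab2), beside 14% of rows; a fit of 2 conditions has its own spread estimate. Without the 4 libraries low in oligodendrocyte and astrocyte genes, chosen after seeing the data, 1 passed in VEH-T10 (beside 5.98% of all rows) and 2 in Y397F-T10 (6.77%), with 2 in VEH-T3 (12.7%), 4 in Y397D-T3 (10.7%) and 2 in the F test (Iyd and Necab2, beside 9.98%). Leaving out each library in turn gave 0 to 2 in VEH-T3 against VEH-HC, 0 to 1 in Y397F-T10 against VEH-HC and 0 to 0 in the rest, with the share of all rows called not computed. The cause of these changes was not tested.

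Of 2268 alternative values of the 63 log2 differences, 46 changed sign, in 16 differences whose size was at most 0.137, none of which passed the test. The 13 relations between the 9 genes became 14 with a pseudocount of 0.1, 11 with median-centred libraries and 17 as deviations from the condition means. With median-centred libraries Iyd with Map3k15 (r = 0.39), Coch with Pcp4 (r = 0.38) and Rgs14 with Necab2 (r = -0.41) lost their call. Precision is limited by 6 mice per condition, by low levels for Map3k15, Coch and Iyd, and by a depth known only in relative terms.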
